A study of Homo sapiens with 4 samples.

Results

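Genes of cholesterol synthesis, sterol sensing and the fatty acid steps regulated with them were followed in MKN28, a cell line from a human gastric adenocarcinoma. The list held 34 symbols, chosen by gene function but with earlier results of these data known. Its comparisons with all rows below are therefore descriptions. Of the 34 symbols, 33 matched a gene name among the 23362 rows of the deposited table. The symbol SC5DL had no row. RefSeq gives it as an older name of SC5D, a sterol desaturase that the table does list, and SC5D is given apart from the 33. The study made 1 poly(A) RNA library from each of 4 stable tet-on MKN28 lines. These were control cells with luciferase (Luc), cells with wild-type KIAA1324 (WT), cells with KIAA1324 in which the asparagines of 3 N-glycosylation sites are replaced with glutamine (3NQ), and cells whose label names KIAA1324 without its transmembrane domain (ΔTM). All cells carry a retroviral construct that doxycycline switches on and were selected with G418 and puromycin, and the study used the ΔTM form as a nonfunctional one. The methods do not state whether doxycycline was given before this RNA was taken, or whether each line is 1 clone.

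With 1 library per group, no difference had a replicate check, and no test or p-value could be computed. The values are FPKM, fragments scaled by the authors for transcript length and library size. The sum of FPKM lay between 560540 and 585104 per library, and the read depth is unknown. The transgene KIAA1324 reached 11185 FPKM in WT and 8197 in 3NQ against 2.86 in Luc, whereas it was listed at 0, which can be a failed estimate, in the library labelled ΔTM. That value goes against the label, and the library is named by its label throughout (ΔTM label). All 7 epithelial markers (EPCAM, KRT8, KRT18, KRT19, CLDN3, CLDN4 and CLDN7) were found, from 14.2 to 8501 FPKM. CD3E was listed at 0 everywhere, PTPRC, COL1A2 and ALB stayed at or below 0.222, COL1A1 lay between 12.1 and 15.3, and the symbol PECAM1 matched no row. The 7 epithelial markers summed to 13665 (Luc), 7966 (WT), 10357 (3NQ) and 11925 FPKM (ΔTM label). Most of this sum is KRT8 and KRT18, which were over 1.5-fold lower in WT. KRT8 had 8501 (Luc) and 4510 FPKM (WT), and KRT18 had 3684 and 2115. EPCAM, KRT19, CLDN3, CLDN4 and CLDN7 lay between 88.9% and 102% of Luc in WT. The part of the markers in the results below was not tested.

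Animal cells build cholesterol from acetyl-CoA through mevalonate, farnesyl diphosphate, squalene and lanosterol. The genes of this route are switched on together by SREBP transcription factors (SREBF1, SREBF2). When sterols are plentiful, INSIG proteins hold SREBP and its escort SCAP in the endoplasmic reticulum, and when sterols are scarce, SREBP travels to the Golgi, is cleaved there and enters the nucleus. Oxysterols act through LXR receptors, which switch on exporters of cholesterol (ABCA1, ABCG1) and the ubiquitin ligase MYLIP.

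SREBP binds sterol regulatory elements close to sites of the factor NF-Y, so the stretch before the gene start was read for these letters. RefSeq promoter windows (GRCh38.p14) matched 29 of the 34 genes with 39 windows, as some genes have more than 1 start and their windows overlap. ABCG1, ACAT2, FASN, FDFT1 and SQLE had no window and were not searched. The 250 bases before the start were searched on both strands. The NF-Y box CCAAT was in 24 of the 39 windows (61.5%), compared to 11240 of all 35116 windows and 33.2% of the windows of genes that passed the expression filter below. ACACA, ACLY, IDI1 and SC5D each gave 2 of these 24 windows, so that 1 site can be counted more than once. The sterol element core CACNCCAC was in 7 windows (17.9%), compared to 4.87% of all windows and 4.65% of those of filtered genes. These were windows of ABCA1, ACACA, IDI1, INSIG1, SC5D, SCD and SREBF2, with IDI1 and SC5D the only cholesterol synthesis enzymes among them. The longer form TCACNCCAC, which contains the core, was in 1 window (2.56%), that of SREBF2, compared to 0.883% and 0.847%. The E-box CACGTG was in 5 windows (12.8%), of ABCA1, INSIG1, SCAP and, with 2 windows, SC5D, compared to 6.34% and 8.11%. A match is a description of letters and not a binding site.

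The windows of 3 genes are shown, those of the pair that was over 1.5-fold lower than Luc in both WT and 3NQ (INSIG1 and MSMO1) and that of SREBF2, the main activator of the sterol genes. Capitals mark CCAAT, CACNCCAC or CACGTG on either strand. All are on the plus strand, at chr7:155297628-155297877, chr4:165327419-165327668 and chr22:41832855-41833104 of GRCh38.p14.
INSIG1: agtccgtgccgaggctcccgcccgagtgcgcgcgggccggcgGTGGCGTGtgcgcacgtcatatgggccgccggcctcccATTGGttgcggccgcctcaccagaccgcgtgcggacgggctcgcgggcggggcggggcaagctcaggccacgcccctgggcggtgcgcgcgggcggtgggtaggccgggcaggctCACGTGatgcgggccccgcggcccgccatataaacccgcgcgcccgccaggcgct
MSMO1: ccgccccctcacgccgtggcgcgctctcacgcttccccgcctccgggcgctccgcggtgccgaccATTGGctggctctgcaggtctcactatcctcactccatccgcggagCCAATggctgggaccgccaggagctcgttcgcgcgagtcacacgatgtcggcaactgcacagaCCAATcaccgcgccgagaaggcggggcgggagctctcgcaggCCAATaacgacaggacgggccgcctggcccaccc
SREBF2: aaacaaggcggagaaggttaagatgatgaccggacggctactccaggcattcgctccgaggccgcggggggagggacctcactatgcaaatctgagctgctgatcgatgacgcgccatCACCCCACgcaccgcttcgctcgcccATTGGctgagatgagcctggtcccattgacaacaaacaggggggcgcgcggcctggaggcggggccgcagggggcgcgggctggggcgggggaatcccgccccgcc
The INSIG1 window held 1 match of each kind, with the CACNCCAC match starting 208 bases before the gene start. MSMO1 held 4 CCAAT boxes, and SREBF2 held 1 CCAAT box 106 bases and the CACNCCAC core 132 bases before its start.

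In Luc, the 33 FPKM ranged from 0.0255 for ABCA1 to 204 for SCD, with a median of 42.2 for LSS. After SCD, the highest were DHCR7 (129), FDFT1 (124), MSMO1 (116) and FASN (111). ABCA1 did not reach an FPKM of 1 in any library, from 0.0255 in Luc to 0.150 in 3NQ, and was left out of the ratios, so that 32 of the 33 genes were compared. IDI1, the isomerase that makes both building blocks of farnesyl diphosphate available, was the lowest of the synthesis enzymes in all 4 libraries, at 1.27 (Luc), 0.837 (WT), 1.10 (3NQ) and 1.13 FPKM (ΔTM label). Its ratios rest on these low values.

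**Figure D1:**
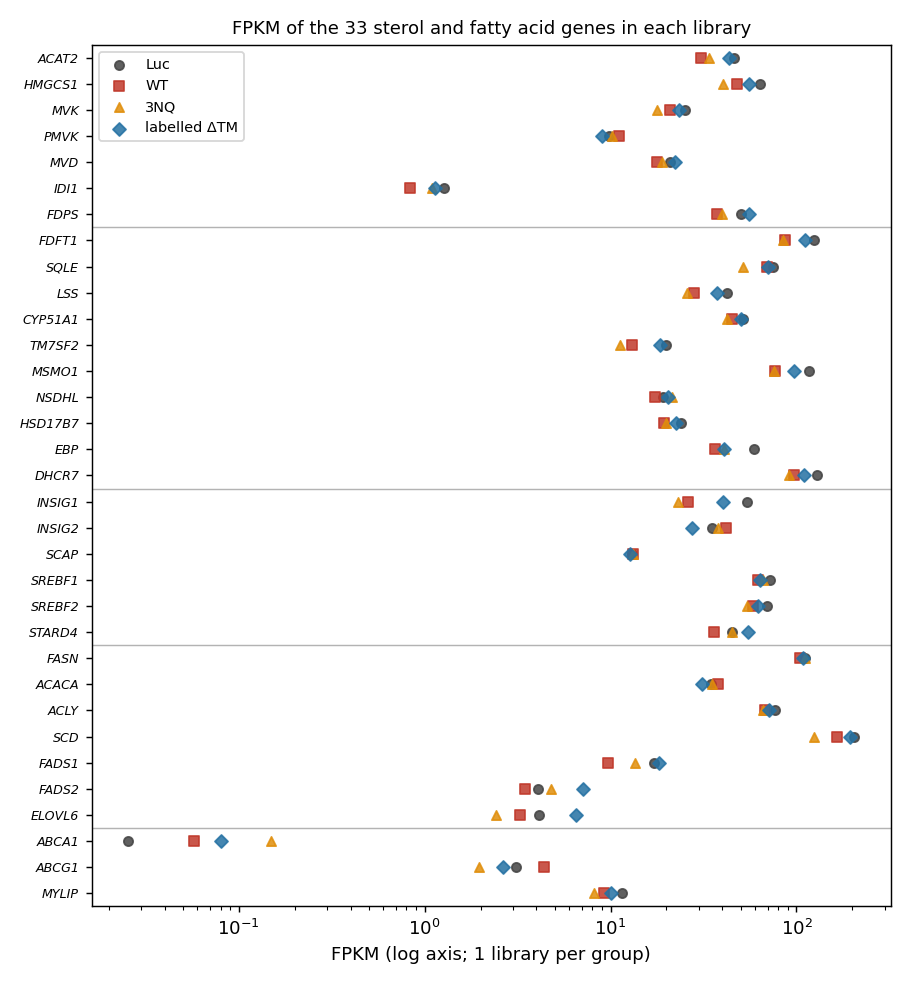
FPKM of the 33 genes in the 4 libraries on a log axis, with genes ordered by role and roles parted by lines (mevalonate steps, squalene and sterol steps, sterol sensing, fatty acid synthesis, export), 1 point per library. SCD is highest at 204 in Luc, ABCA1 is under 1 in all 4, and WT and 3NQ lie left of Luc for most sterol enzymes.

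Ratios were computed as log2(FPKM + 1) in a library minus that in Luc, which understates the change of low genes, for the 11769 table rows that reached 1 FPKM in any library. Calls were made at 1.5-fold (0.585 on the log2 scale) in either direction. In WT, 27 of the 32 genes were below Luc, as were 50.9% of all rows. Of the 32, 4 were called lower (12.5%), beside 3.34% of all rows, and 0 were called higher, beside 3.36%. In 3NQ, 24 of 32 were below Luc (57.0% of all rows), 7 were called lower (2.57% of all) and 0 higher (1.77%). In the library labelled ΔTM, 25 of 32 were below Luc (63.0% of all), 0 were called lower (1.57%) and 1, FADS2, was called higher (1.54%). The 32 genes had median log2 ratios of −0.28 (WT), −0.34 (3NQ) and −0.11 (ΔTM label), beside −0.0049, −0.038 and −0.060 for all rows. Rescaling the libraries, by the median of ratios or by the upper quartile, left 27 (WT), 24 (3NQ) and 22 (ΔTM label) genes below Luc, and the median for the ΔTM label became −0.045 or −0.053. These 3 comparisons share the Luc library, so that a high Luc value of a gene lowers its ratio in all of them. In a bulk library, fewer cells expressing a gene and less RNA per cell cannot be told apart.

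**Figure D2:**
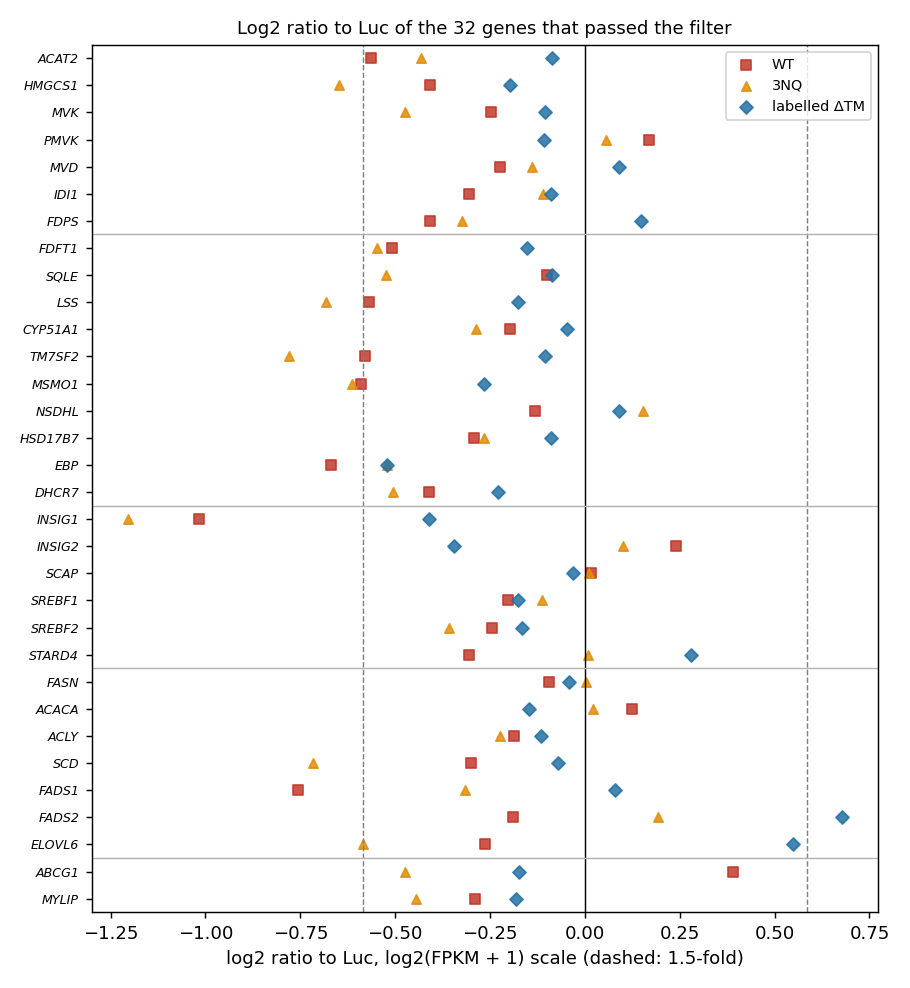
Log2 ratio to Luc on the log2(FPKM + 1) scale of the 32 genes that passed the filter, 1 point per construct library, with dashed lines at 1.5-fold. INSIG1 lies farthest to the left, at −1.02 in WT and −1.21 in 3NQ, and FADS2 of the library labelled ΔTM farthest to the right, at 0.68.

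The 17 enzymes of cholesterol synthesis with a row under their listed symbol formed the largest group. Summed over them, the level was 877 (Luc), 656 (WT), 626 (3NQ) and 788 FPKM (ΔTM label), which is 74.9%, 71.4% and 89.8% of Luc. Of the 17, 16 were below Luc in WT, 15 in 3NQ and 14 for the ΔTM label, where 13 were below Luc after either rescaling. Among them the median log2 ratio stood at −0.41 (WT), −0.47 (3NQ) and −0.11 (ΔTM label), the last at −0.042 or −0.051 after rescaling.

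**Figure D3:**
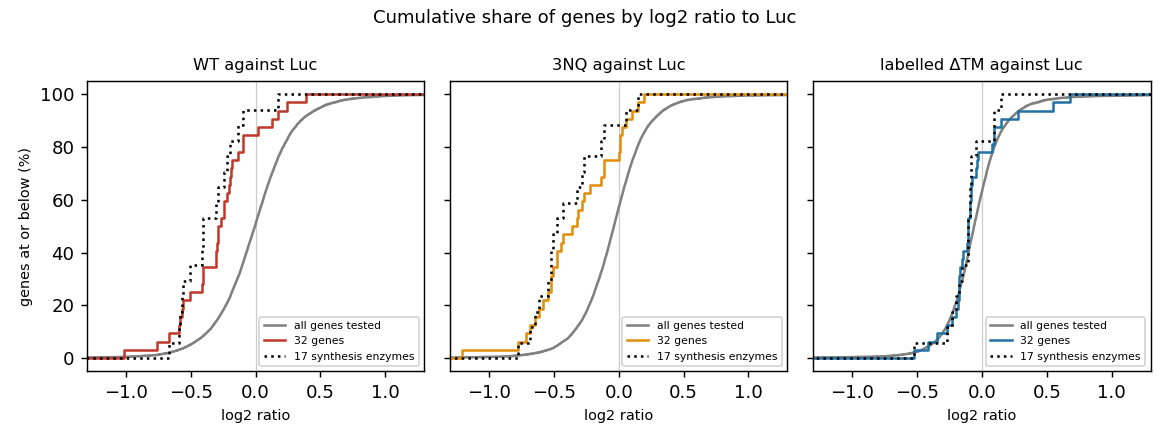
Share of genes (percent) at or below each log2 ratio to Luc, for all 11769 rows tested (grey), the 32 genes (coloured) and the 17 cholesterol synthesis enzymes among them (dotted). The enzyme curve lies left of the grey curve in WT and 3NQ, at medians of −0.41 and −0.47, and nearer to it for the ΔTM label (−0.11).

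The first steps join acetyl-CoA units and make farnesyl diphosphate, and 6 of the 7 genes of these steps were below Luc in WT and in 3NQ. HMGCS1 (ENSG00000112972, GRCh37 chromosome 5 from 43289497 to 43313614), which makes HMG-CoA, had 63.5 (Luc), 47.6 (WT), 40.2 (3NQ) and 55.2 FPKM (ΔTM label). WT and 3NQ were thus its lowest libraries, and it was called lower in 3NQ (−0.65) but not in WT (−0.41). ACAT2, the cytosolic thiolase that joins acetyl-CoA units, had 46.0, 30.8, 33.8 and 43.2 FPKM in the same order. Its log2 ratio was −0.56 in WT, just short of the threshold, and −0.43 in 3NQ. Part of ACAT2 overlaps SOD2 and TCP1 on the opposite strand, and strand use in the counting is not given in the sources used here. SOD2 had 31.4 (Luc), 59.7 (WT), 41.2 (3NQ) and 33.2 FPKM (ΔTM label), and TCP1 had 259, 256, 240 and 209. The part of these genes in the ACAT2 values was not tested. FDPS, which makes farnesyl diphosphate, had 50.3 (Luc), 37.6 (WT), 40.0 (3NQ) and 55.8 FPKM (ΔTM label), the last above Luc. Mevalonate kinase (MVK) was lower in 3NQ (17.8) than in WT (21.0), the library labelled ΔTM (23.3) and Luc (25.1). The decarboxylase MVD differed less, with log2 ratios of −0.22 in WT and −0.14 in 3NQ. Only phosphomevalonate kinase (PMVK) among the 7 was above Luc in WT and 3NQ, with 9.80 (Luc), 11.2 (WT), 10.2 (3NQ) and 9.02 FPKM (ΔTM label).

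From squalene onward, all 10 genes were below Luc in WT and 9 in 3NQ, with a median log2 ratio of −0.46 and −0.52. FDFT1, which commits farnesyl diphosphate to sterols as squalene, had 124 (Luc), 86.7 (WT), 84.3 (3NQ) and 111 FPKM (ΔTM label). Lanosterol synthase (LSS, ENSG00000160285, chromosome 21 from 47608055 to 47648738) had 42.2, 28.1, 25.9 and 37.3 FPKM in the same order. It was called lower in 3NQ (−0.68), whereas its ratio in WT (−0.57) did not reach the threshold. TM7SF2, a sterol reductase (ENSG00000149809, chromosome 11 from 64879317 to 64883856), had 19.9 (Luc), 13.0 (WT), 11.2 (3NQ) and 18.5 FPKM (ΔTM label). Luc and the library labelled ΔTM lay close together for these genes, and WT and 3NQ lay apart from them. The ratio of TM7SF2 was −0.78 in 3NQ and −0.58 in WT, where it missed the threshold and passed it with a pseudocount of 0.1 (−0.61).

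MSMO1, a sterol methyl oxidase (ENSG00000052802, chromosome 4 from 166248775 to 166264312), had 116 (Luc), 77.0 (WT), 75.8 (3NQ) and 96.7 FPKM (ΔTM label). It was called lower in both WT (−0.59) and 3NQ (−0.61), by a small margin, and neither call held under median of ratios rescaling (−0.58 and −0.57). EBP, a sterol isomerase (ENSG00000147155, chromosome X from 48379546 to 48387104), went another way. It had 58.9 FPKM (Luc), 36.7 (WT) and 40.8 (both 3NQ and the ΔTM label), so that Luc alone stood high. The log2 ratio of EBP was −0.67 in WT and −0.52 in each of the others.

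Squalene epoxidase (SQLE), a rate-limiting step, was lowest in 3NQ, with 74.7 (Luc), 69.6 (WT), 51.7 (3NQ) and 70.4 FPKM (ΔTM label). DHCR7, which makes cholesterol from its last precursor, had 129, 96.8, 90.6 and 110 FPKM in the order of Luc, WT, 3NQ and ΔTM label. The demethylase CYP51A1 (−0.20 in WT and −0.29 in 3NQ) and HSD17B7 (−0.29 and −0.27) were nearer to Luc, and reads of HSD17B7 may be shared with its pseudogene copy. NSDHL, a sterol dehydrogenase, was below Luc in WT (17.3 against 19.1 FPKM) and above it in 3NQ (21.3) and the library labelled ΔTM (20.4). SC5D, outside the counts, had 50.6 (Luc), 56.0 (WT), 46.5 (3NQ) and 48.2 FPKM (ΔTM label), above Luc in WT.

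Of the regulators, INSIG1 differed most. INSIG1 (ENSG00000186480, chromosome 7 from 155089486 to 155101945), itself a target of SREBP as well as its anchor, had 54.2 (Luc), 26.2 (WT), 22.9 (3NQ) and 40.5 FPKM (ΔTM label). WT was at 48.5% and 3NQ at 42.3% of Luc, and the library labelled ΔTM lay between at 74.7%. Among the 11769 rows, its log2 ratio was the 65th lowest in WT (−1.02) and the 41st lowest in 3NQ (−1.21). It was the only 1 of the 32 genes that passed a 2-fold threshold in WT or 3NQ. INSIG2, the second anchor, was above Luc in WT and 3NQ but below it for the ΔTM label, with 35.2 (Luc), 41.7 (WT), 37.8 (3NQ) and 27.5 FPKM (ΔTM label). SREBF2 had 69.6, 58.6, 54.1 and 61.9 FPKM in the order of Luc, WT, 3NQ and ΔTM label, and SREBF1 had 71.7, 62.2, 66.3 and 63.4, so that both were highest in Luc without a call. SCAP varied little, from 12.8 to 13.2 FPKM over the 4 libraries. STARD4, a carrier of cholesterol between membranes, had 45.0 (Luc), 36.2 (WT), 45.2 (3NQ) and 54.8 FPKM (ΔTM label).

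The fatty acid genes were less uniform. Fatty acid synthase (FASN) had between 104 and 112 FPKM, acetyl-CoA carboxylase (ACACA) between 31.1 and 37.8, and ATP citrate lyase (ACLY), which supplies cytosolic acetyl-CoA, between 65.9 and 77.1. Stearoyl-CoA desaturase (SCD, ENSG00000099194, chromosome 10 from 102106881 to 102124591) had 204 (Luc), 166 (WT), 124 (3NQ) and 194 FPKM (ΔTM label). It was called lower in 3NQ (−0.72) but not in WT (−0.30). ELOVL6, which lengthens fatty acids, had low values of 4.13, 3.28, 2.42 and 6.51 in the order of Luc, WT, 3NQ and ΔTM label. Its ratio of −0.59 in 3NQ was at the threshold and was lost with a pseudocount of 5 (−0.30) and after either rescaling (−0.55 and −0.54), and its ratio of 0.55 in the library labelled ΔTM passed the threshold after rescaling by the median of ratios (0.60).

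FADS1 and FADS2 make polyunsaturated fatty acids. FADS1 (chromosome 11 from 61567099 to 61596790, minus strand) had 17.1 (Luc), 9.71 (WT), 13.5 (3NQ) and 18.1 FPKM (ΔTM label), and it was called lower in WT (−0.76). FADS2 (chromosome 11 from 61560452 to 61634826, plus strand) had 4.08, 3.45, 4.80 and 7.12 in the same order, and its ratio of 0.68 was the only call in the library labelled ΔTM. The deposited coordinates place all 29692 bases of FADS1 inside FADS2, which also spans FEN1 (89.5 to 103 FPKM). Without strand, reads of FADS1 and FADS2 cannot be told apart where their exons overlap, so that both genes are uncertain.

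For the LXR targets, the libraries differed in order. ABCG1 had 3.12 (Luc), 4.39 (WT), 1.96 (3NQ) and 2.65 FPKM (ΔTM label), highest in WT. MYLIP had 11.5, 9.26, 8.20 and 10.05 in the same order, highest in Luc. Neither was called against Luc, although ABCG1 in 3NQ (−0.47) passed the threshold with a pseudocount of 0.1 (−0.64).

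The construct libraries were also compared with each other, without Luc. Between WT and 3NQ, 1 of the 32 genes was called higher (2.89% of all rows) and 0 lower (1.58%). The gene was ABCG1, with a log2 ratio of 0.86. The 17 synthesis enzymes had a median of 0.040 in this comparison, which turned to −0.020 after upper quartile rescaling, and ranged from −0.28 for NSDHL to 0.42 for SQLE. Against the library labelled ΔTM, WT had 5 genes called lower (2.91% of all rows), namely INSIG1 (−0.61), STARD4 (−0.59), FADS1 (−0.84), FADS2 (−0.87) and ELOVL6 (−0.81), and 1 called higher (4.25%), INSIG2 (0.59), a call that either rescaling removed, while adding FDPS to the lower ones. In 3NQ against the same library, 4 were called lower (1.88% of all rows), namely TM7SF2 (−0.67), INSIG1 (−0.79), SCD (−0.64) and ELOVL6 (−1.13), and 0 higher (1.46%). For the 17 enzymes, the median ratio to that library was −0.22 (WT) and −0.35 (3NQ), beside 0.047 and 0.021 for all rows.

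**Figure D4:**
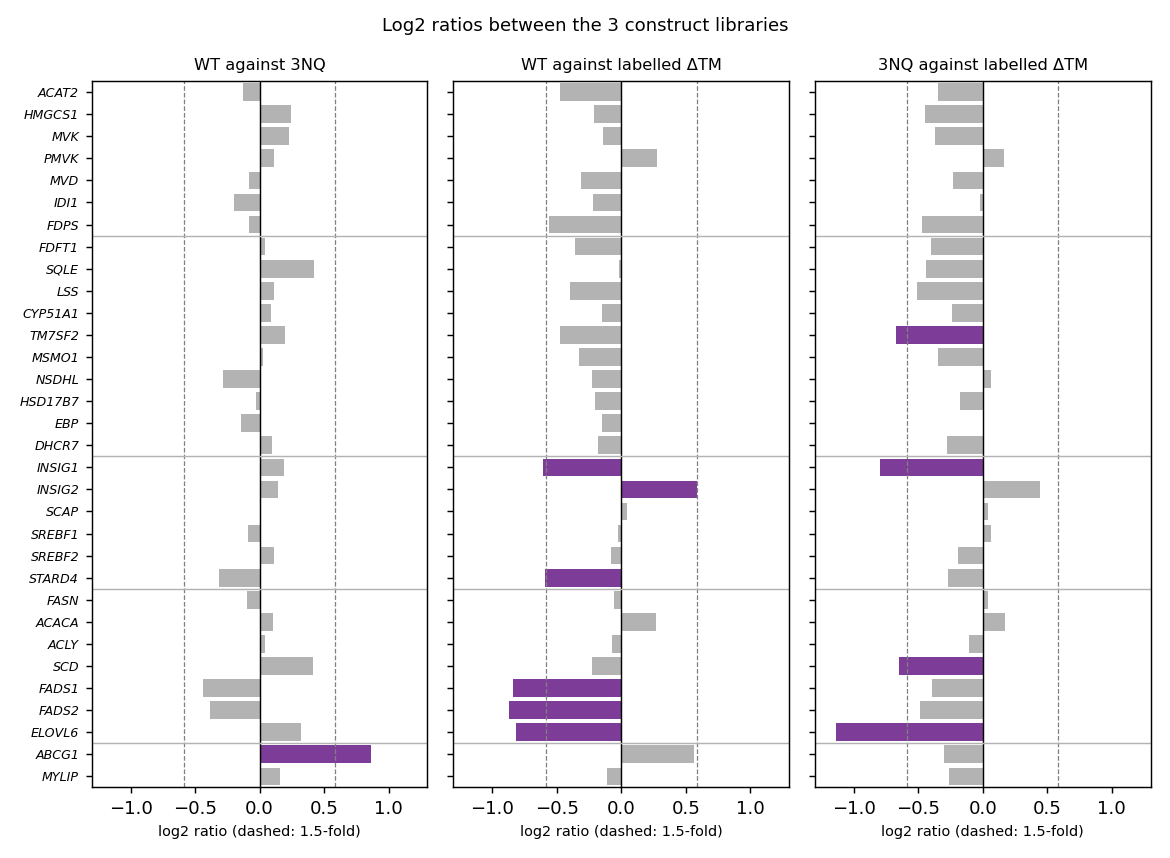
Log2 ratios on the log2(FPKM + 1) scale between the 3 construct libraries for the 32 genes, as bars from 0, with purple bars at or past 1.5-fold (dashed lines). WT and 3NQ differ past the threshold in ABCG1 alone (0.86), whereas INSIG1 and ELOVL6 are past it in both comparisons with the library labelled ΔTM.

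Since 3NQ and WT lay near each other for many genes, the order of the libraries was counted, a choice made after the values were seen. In 22 of the 32 genes (68.8%), both WT and 3NQ were below both Luc and the library labelled ΔTM, as in 21.8% of all rows. In 4 genes (PMVK, INSIG2, SCAP and ACACA) both were above, as in 22.5% of all rows. The 22 genes included 15 of the 17 synthesis enzymes, with PMVK and NSDHL as the exceptions. For EBP the order rests on nearly equal values in 3NQ and the ΔTM label, as it does for IDI1 (1.10 and 1.13 FPKM). Other margins were also small, such as that of SQLE, with 69.6 in WT and 70.4 FPKM for the ΔTM label. Among the genes with both above, SCAP had 13.17 FPKM in 3NQ and 13.07 in Luc. After either rescaling, the counts were 22 genes, 15 enzymes and 3 genes with both above. The 2 libraries on each side were not replicates of each other.

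A second list of 25 genes of sterol and lipid handling was counted in the same way, and 23 passed the filter. Only NR1H3, the LXR alpha receptor, was called, lower in WT, with 13.6 (Luc), 8.54 (WT), 10.5 (3NQ) and 12.1 FPKM (ΔTM label) and a log2 ratio of −0.62 in WT. This 1 gene of 23 is near the 3.34% of all rows called lower there. Of the 23, 15 were below Luc in WT, 18 in 3NQ and 16 for the ΔTM label, beside 50.9%, 57.0% and 63.0% of all rows. After rescaling by the median of ratios, the counts were 14, 15 and 11, and by the upper quartile 15, 15 and 12. Median log2 ratios of this list were −0.16 (WT), −0.12 (3NQ) and −0.058 (ΔTM label). In WT and 3NQ these lay between the medians of all rows and of the synthesis enzymes. Genes of sterol synthesis on this list included LBR, a second sterol reductase, with 99.5, 69.2, 79.3 and 81.9 FPKM in the order of Luc, WT, 3NQ and ΔTM label, and C14orf1, a scaffold of the late enzymes (19.2, 14.1, 14.9 and 18.5). TMEM97, a sterol-regulated membrane protein, had 16.5, 11.7, 12.9 and 17.9. ELOVL5 and VLDLR did not reach an FPKM of 1 in any library.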

How the data were processed

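RNAseq of 4 MKN28 libraries was analysed. The authors removed reads with undetermined or low-quality bases, mapped the others to GRCh37 (Ensembl release 72) with TopHat and estimated FPKM with Cufflinks 2.1.1. Non-coding regions were masked, and corrections for multi-mapped reads and fragment bias were applied. The deposited table holds FPKM alone, without read counts or error estimates, and depth is therefore unknown.

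Groups were taken from the sample titles. Log2 ratios with a pseudocount of 1 were computed for the 11769 rows reaching 1 FPKM in any library, and calls were made at 1.5-fold, with Python 3.11.15, numpy 2.4.6, pandas 2.3.3 and matplotlib 3.10.9. The steps were tested on simulated data. By rule, every one of the 33 genes found is named. The genes and lists were chosen with earlier results of these data known. Not every gene of the pathway is reported here. The alternatives were pseudocounts of 0.1 and 5, a 2-fold threshold, no filter, a minimum of 5 FPKM, median of ratios and upper quartile rescaling, and WT set against the mutants' mean. The counting of library order and the addition of SC5D were chosen after seeing the data. Gene coordinates are those of the deposited table, and promoter windows are those of RefSeq on GRCh38.p14.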

Additional observations from a re-analysis of the deposited data

How the results depend on the processing

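No paired analysis was possible because each group has 1 library, so no replicate could be left out either. A median was taken as moved when it changed by 0.1 or more on the log2 scale. At a 2-fold threshold, 1 gene was called lower in WT and 1 in 3NQ, INSIG1 in both, and 0 were called higher in the library labelled ΔTM. Against the averaged mutants, 2 genes were called lower in WT (FADS1 and FADS2), 1 was called higher (ABCG1), beside 221 lower and 304 higher of all rows, and the median of the 32 genes in WT was −0.098, beside −0.28 against Luc. INSIG1 (−0.26), EBP (−0.15) and MSMO1 (−0.16) lost their calls there. In the library labelled ΔTM, 2 genes were called higher with a pseudocount of 0.1 and after either rescaling (FADS2 and ELOVL6), and 0 with a pseudocount of 5. With a pseudocount of 0.1, all rows called in WT numbered 600 higher and 659 lower, beside 396 and 393 with 1, and with a pseudocount of 5 they were 147 and 128. The same counts were 378 and 582, and 98 and 92, in 3NQ, and 333 and 387, and 88 and 56, for the ΔTM label. At 2-fold they were 79 and 67 (WT), 58 and 61 (3NQ) and 71 and 51 (ΔTM label). Rescaling by the median of ratios turned the split of all calls from 181 higher and 185 lower to 222 and 145 for the ΔTM label, and from 500 and 343 to 394 and 435 for WT against it. Upper quartile rescaling turned that of 3NQ from 208 and 303 to 247 and 238. Under the other alternatives, counts of the 32 genes called stayed within 1.5 times and medians within 0.1. Of the single gene ratios to Luc, counting WT against the averaged mutants, 21 lost a call and 7 gained one over these alternatives, and no called ratio changed direction. Ratios between construct libraries were recomputed under the rescalings only and are not in this tally. With 1 library each, none of this measures the spread between cultures.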
